A study of Mus musculus with 2 samples.

Results

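Collagen is folded, trimmed and crosslinked by a set of enzymes and chaperones, and 10 of their genes were followed through 2 sections of mouse tissue. The genes were taken by symbol: the lysyl oxidase family Lox, Loxl1, Loxl2, Loxl3 and Loxl4, the lysyl hydroxylases Plod1, Plod2 and Plod3, the collagen chaperone gene Serpinh1 and the procollagen C-proteinase enhancer gene Pcolce. All 10 were found among the 19465 genes listed in both libraries, and the rule used symbols alone. The data are spatial transcriptomics. Barcoded spots under a tissue section record its RNA, each from a patch that may span several cells, and the output is a count of UMIs (unique molecular identifiers, which count captured molecules). Whether the RNA itself or probes for it were captured is not given in the sources used here. The series asks how the surface structure of an implant bears on bone regeneration. Both groups were nude mice, an athymic strain that lacks mature T cells. A flat implant was given in the first group and a micropillar implant, whose surface carries small posts, in the second. For both the tissue label was Bone and the material FFPE, that is, fixed in formalin and embedded in paraffin. Age, sex, time after surgery and the number of animals behind a section were not given in the sources used here. With 1 library per group no test between the groups was possible, so no p-value is given and every difference is between these 2 libraries.

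As background, a fibrillar collagen chain is modified while it is still in the endoplasmic reticulum. Lysyl hydroxylases add hydroxyl groups to lysines of the chain, HSP47 (the product of Serpinh1) binds the folded triple helix and escorts it towards the Golgi, and PCPE-1 (the product of Pcolce) speeds the removal of the C-terminal propeptide by BMP1-type proteases outside the cell. Lysyl oxidases then oxidise lysines and hydroxylysines of the assembled fibril, from which covalent crosslinks form, and in bone the hydroxylysine-derived crosslinks carry the mineralised matrix.

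Spots with at least 100 UMIs were kept, 2681 in the flat-implant library and 3064 in the micropillar library, with 2263345 and 3173632 UMIs and a median of 602 and 831 UMIs per spot. The tissue label was only partly borne out by marker genes. A list of 9 measured bone-forming genes gave 436 and 663 UMIs, most of them from Bglap (osteocalcin) with 294 and 483, while Ibsp (bone sialoprotein) gave 0 and 9 and the osteoblast transcription factor Sp7 gave 2 and 11. Only 21 and 23 spots were assigned to that list, whereas lists of neuronal markers took 784 and 764 spots, so that both sections held more neural than bone-marker spots. The skeletal muscle list took 279 spots in the flat-implant library and 59 in the micropillar library. The libraries shared 2135 spot barcodes, which are positions on the capture grid and not cells.

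To read the enzymes against their substrate, spots were called collagen-rich by 8 fibrillar, type VI and type XII collagen genes. At least 3 UMIs and at least 1% of a spot's UMIs had to come from them. The genes were Col1a1, Col3a1, Col5a1, Col5a2, Col6a1, Col6a2, Col6a3 and Col12a1. Type I collagen thus entered the rule through Col1a1, so the values of Col1a2 are not independent of it. Neither Col1a2, the gene of the alpha-2 chain of type I collagen, nor any of the 10 enzymes and chaperones was in that rule. It selected 534 flat spots, 19.9% of those kept (95% interval 18.4 to 21.5), and 493 micropillar spots, 16.1% (14.8 to 17.4). Among all kept spots with at least 3 UMIs of these collagens, 72 and 95 lay between 0.8% and 1.2% collagen, a range that spans the limit. Collagen-rich spots were shallow, with a median of 245 and 377 UMIs against 783 and 955 in the other spots, and they held 6.78% and 6.87% of all UMIs. A level is given as UMIs per 1000000 UMIs of the same spots (CPM). CPM levels are compared within a gene and not between genes, since the files carry no measure of how efficiently each gene was counted. Sums over genes and ratios to Col1a2 use raw UMIs and weigh genes by that unknown efficiency. They are read between sets of spots. All intervals are 95% and cover counting error alone.

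Promoter sequences in RefSeq were matched for 5 of the 10 genes, Loxl4, Plod1, Plod3, Serpinh1 and Pcolce, and for Col1a2. The 250 bases before the transcription start are shown for Serpinh1 and Pcolce, whose levels rose with collagen in the spots, for Plod3, whose level differed less with it, and for Col1a2, the substrate gene, so that the differing genes can be seen beside each other. Build is GRCm38.p6, the sequences run 5′ to 3′ on the gene's own strand, and capitals mark the GC box (GGGCGG), the CCAAT box (CCAAT) and the TATA box (TATAAA) on either strand. The regions on the minus strand are chr7:99353240-99353489 for Serpinh1 and chr5:137611405-137611654 for Pcolce. Those on the plus strand are chr6:4505368-4505617 for Col1a2 and chr5:136986769-136987018 for Plod3. The starts are those of RefSeq. By the GENCODE coordinates the windows of Pcolce (gene from 137605103 to 137613784) and Col1a2 (gene from 4504814 to 4541544) lie inside the gene. Those of Serpinh1 and Plod3 lie directly before it.
Serpinh1: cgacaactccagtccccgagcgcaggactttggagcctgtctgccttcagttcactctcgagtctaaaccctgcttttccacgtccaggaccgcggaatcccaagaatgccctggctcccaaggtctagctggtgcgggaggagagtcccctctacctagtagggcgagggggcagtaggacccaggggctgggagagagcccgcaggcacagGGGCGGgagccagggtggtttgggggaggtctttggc
Pcolce: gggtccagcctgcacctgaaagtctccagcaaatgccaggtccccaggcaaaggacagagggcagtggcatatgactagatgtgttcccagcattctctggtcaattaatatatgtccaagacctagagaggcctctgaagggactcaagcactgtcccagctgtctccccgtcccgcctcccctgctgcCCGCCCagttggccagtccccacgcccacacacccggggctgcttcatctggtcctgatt
Col1a2: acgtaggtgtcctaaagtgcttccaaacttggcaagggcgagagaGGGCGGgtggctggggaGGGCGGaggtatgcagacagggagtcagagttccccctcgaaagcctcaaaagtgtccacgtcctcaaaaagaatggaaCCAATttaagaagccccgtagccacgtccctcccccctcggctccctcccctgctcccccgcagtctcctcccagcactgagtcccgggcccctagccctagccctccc
Plod3: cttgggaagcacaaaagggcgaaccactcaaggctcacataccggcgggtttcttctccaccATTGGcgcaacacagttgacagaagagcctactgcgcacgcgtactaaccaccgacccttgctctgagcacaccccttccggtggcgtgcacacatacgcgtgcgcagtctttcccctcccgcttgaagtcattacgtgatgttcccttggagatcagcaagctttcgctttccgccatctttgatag

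Col1a2 carried 2 GC boxes, Serpinh1 and Pcolce 1 each, and Plod3 none, while Plod1 carried 2 and Loxl4 carried 3. A GC box was present in 32.7% of all 32851 promoters of this length. The CCAAT box was found once each in Plod3 and Col1a2 and in none of the other 4, against 33.9% of all promoters (both strands were searched, and in the printed sequences no motif overlapped another). A TATA box was found only in Plod1 among these 6, against 12.4% of all promoters. The heat shock element in the form GAANNTTC was searched because HSP47 is a heat shock protein, and these letters were not in any of the 6 windows, against 6.69% of all promoters. Serpinh1 had the most GC-rich of the 4 printed sequences, with 63.6% G and C against 62% in Col1a2, 58.8% in Pcolce and 55.6% in Plod3, and a median of 52.4% over all promoters.

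Lox, Loxl1 and Loxl2 had most of their UMIs in collagen-rich spots, and Loxl3 had 17 of 34 flat and 16 of 45 micropillar UMIs there. Lox, the founding member of the family, had 29 UMIs in collagen-rich spots and 9 in all other spots of the flat library, which is 189 against 4.27 CPM and 44.3-fold higher (20.4 to 106). In the micropillar library it had 41 and 16 UMIs, 188 against 5.41 CPM and 34.7-fold higher (19.1 to 66.3). Both libraries thus gave nearly the same Lox level in collagen-rich spots, with a log2 ratio of micropillar over flat of -0.01 (-0.73 to 0.73). In spots with at least 500 UMIs that ratio was 1.15 (-0.57 to 3.54). Loxl1, known for its part in elastic fibre assembly, had 456 CPM (70 UMIs) in collagen-rich spots and 17.1 CPM (36 UMIs) elsewhere in the flat library. The micropillar values of Loxl1 were 344 CPM (75 UMIs) and 17.9 CPM (53 UMIs). That is 26.7-fold (17.6 to 41.1) and 19.2-fold (13.3 to 27.8) higher in collagen-rich spots. Here and below, a section cannot tell apart more cells of a type and more RNA per cell.

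Loxl2, a crosslinker of type IV as well as fibrillar collagen, had 58.6 CPM (9 UMIs) in collagen-rich spots of the flat library and 2 UMIs elsewhere. In the micropillar library it had 110 CPM (24 UMIs) and 3.05 CPM (9 UMIs). Loxl3 had the smallest fold of the 4 family members with at least 20 UMIs over both libraries. It had 110.8 CPM (17 UMIs) in collagen-rich and 8.06 CPM (17 UMIs) in other spots of the flat library, and 73.4 CPM (16 UMIs) and 9.81 CPM (29 UMIs) in the micropillar library. These are folds of 13.7 (6.60 to 28.6) and 7.48 (3.79 to 14.2), below those of Lox, Loxl1 and Loxl2 in both libraries, although the flat interval overlaps that of each of the others. Loxl4 gave 2 and 5 UMIs in all and is not read further. Summed over the 5 genes, the family was 26.6-fold (19.6 to 36.5) higher in collagen-rich spots of the flat library and 19.8-fold (15.4 to 25.5) higher in those of the micropillar library.

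**Figure D1:**
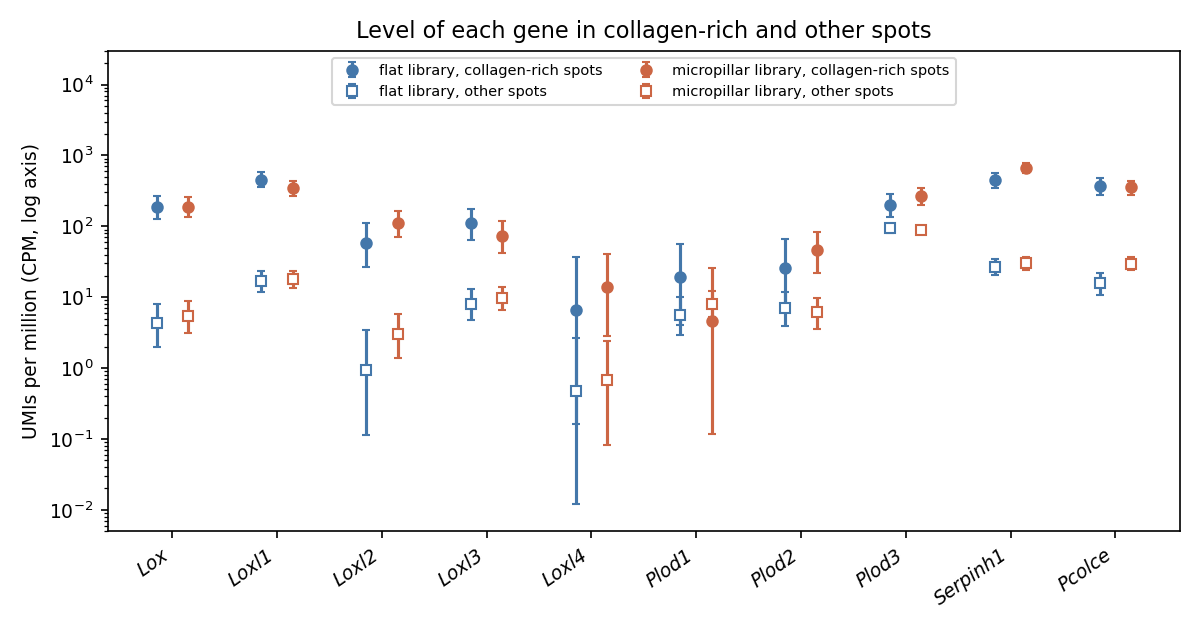
Level of each gene in CPM (log axis) in collagen-rich spots (filled circles) and all other spots (open squares) of the flat and micropillar libraries, with bars for the 95% Poisson interval. The gap between filled and open symbols is wide for Lox, at 189 against 4.27 CPM in the flat library, and narrow for Plod3, at 202 against 93.4 CPM.

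Among the lysyl hydroxylases, Plod3 was found widely outside collagen-rich spots, while Plod1 and Plod2 gave few UMIs. Plod3, which also carries the galactosyl- and glucosyltransferase activities that decorate hydroxylysine, had 202 CPM (31 UMIs) in collagen-rich spots and 93.4 CPM (197 UMIs) in other spots of the flat library, a fold of 2.16 (1.43 to 3.17). In the micropillar library it had 266 CPM (58 UMIs) and 88.6 CPM (262 UMIs), a fold of 3.001 (2.22 to 4.002). Plod2, the hydroxylase of the collagen telopeptides, had 4 UMIs in collagen-rich and 15 in other spots of the flat library, and 10 and 18 in the micropillar library. Its folds were 3.67 (0.885 to 11.5) and 7.53 (3.11 to 17.2), and the flat interval reaches below 1. Plod1, the hydroxylase of the triple helix, had 3 and 12 UMIs, then 1 and 24, too few to place it. Over the 3 genes together, the level in collagen-rich spots was 2.33-fold (1.61 to 3.30) higher in the flat-implant library and 3.08-fold (2.33 to 4.01) higher in the micropillar library. These sums are mostly Plod3, which gave 31 of 38 and 58 of 69 of the collagen-rich UMIs. The Plod3 interval does not overlap that of the lysyl oxidase sum in either library, whereas the micropillar interval of Plod2 does.

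Serpinh1 and Pcolce were higher in collagen-rich spots by folds within the range of Lox, Loxl1, Loxl2 and Loxl3 in the same library. Serpinh1 had 443 CPM (68 UMIs) in collagen-rich and 27.0 CPM (57 UMIs) in other spots of the flat library, 16.4-fold higher (11.4 to 23.7). Its micropillar values were 660.5 CPM (144 UMIs) and 30.5 CPM (90 UMIs), 21.7-fold higher (16.6 to 28.5). Pcolce had 365 CPM (56 UMIs) and 15.6 CPM (33 UMIs) in the flat library, a fold of 23.3 (14.9 to 37.0). Its micropillar values were 353 CPM (77 UMIs) and 29.8 CPM (88 UMIs), a fold of 11.9 (8.62 to 16.3). For scale, Col1a2 itself was 49.6-fold (46.4 to 53.1) and 32.3-fold (30.8 to 33.8) higher in collagen-rich spots. Each of Loxl1, Serpinh1, Pcolce and Plod3 had a fold whose interval lay wholly under that of Col1a2 in both libraries, while the Lox interval contained the Col1a2 fold in both.

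Counted against all genes, 6 of 6 of the enzymes and chaperones with at least 20 UMIs over the spots of the flat library were at least 2-fold higher in collagen-rich spots, where 22.2% of 10063 genes were, and none was 2-fold lower, where 31.6% were. In the micropillar library 8 of 9 were at least 2-fold higher, where 18.4% of 11098 genes were, and none was 2-fold lower, where 25.3% were. The exception was Plod1. The median log2 ratio of collagen-rich over other spots was 4.22 over these genes against -0.20 over all genes in the flat library, and 3.52 against -0.18 in the micropillar library. The minimum of 20 UMIs is summed over both kinds of spot. Lox in both libraries and Loxl2 in the micropillar library met it through collagen-rich spots. Plod1 and Plod2, with most of their UMIs elsewhere, fell short of it in the flat library, as did Loxl2 and Loxl4. The counts of called genes are thus partly set by the minimum. Markers of other cells moved with the same division. The fibroblast list, with 8 of 8 markers detected in each library, had a summed 2404 and 2023 CPM in collagen-rich spots against 129 and 170 CPM elsewhere. The epidermis list, also 8 of 8, had 9935 and 7096 against 2710 and 3098 CPM, and the cortical glutamatergic list, 8 of 8, had 169 and 234 against 1764 and 1280 CPM. Their part in the enzyme levels was not tested. The median log2 ratio with hair follicle, epidermis and skeletal muscle spots left out of the collagen-rich set was 4.42 in the flat-implant and 3.66 in the micropillar library, an alternative chosen after the data were seen.

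A considerable part of the enzyme UMIs lay outside collagen-rich spots. Collagen-rich spots held only 6.78% and 6.87% of all UMIs, so an evenly spread gene would have nearly all of its UMIs outside. For Col1a2 the share outside was 21.7% (20.6 to 22.8) in the flat-implant library and 29.6% (28.6 to 30.6) in the micropillar library. Lox was close to it, with 23.7% (11.4 to 40.2) and 28.1% (17.0 to 41.5). Loxl1 had 34.0% (25.04 to 43.8) and 41.4% (32.8 to 50.4), Serpinh1 had 45.6% (36.7 to 54.7) and 38.5% (32.2 to 45.02), and Loxl3 had 50% (32.4 to 67.6) and 64.4% (48.8 to 78.1). Pcolce had 37.1% (27.1 to 48.0) and 53.3% (45.4 to 61.1). Each of Loxl1, Serpinh1, Loxl3 and Pcolce thus had a larger share outside than Col1a2 in both libraries, with intervals that do not overlap that of Col1a2. Plod3 had 86.4% (81.3 to 90.6) and 81.9% (77.2 to 85.9), with Plod1 at 80.0% and 96.0% and Plod2 at 78.9% and 64.3% on far fewer UMIs. Over the 10 genes, 379 of 667 flat UMIs and 591 of 1040 micropillar UMIs lay outside, 56.8% in each library, and without Plod3 the share was 41.5% (36.8 to 46.2) and 45.7% (42.0 to 49.4).

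**Figure D2:**
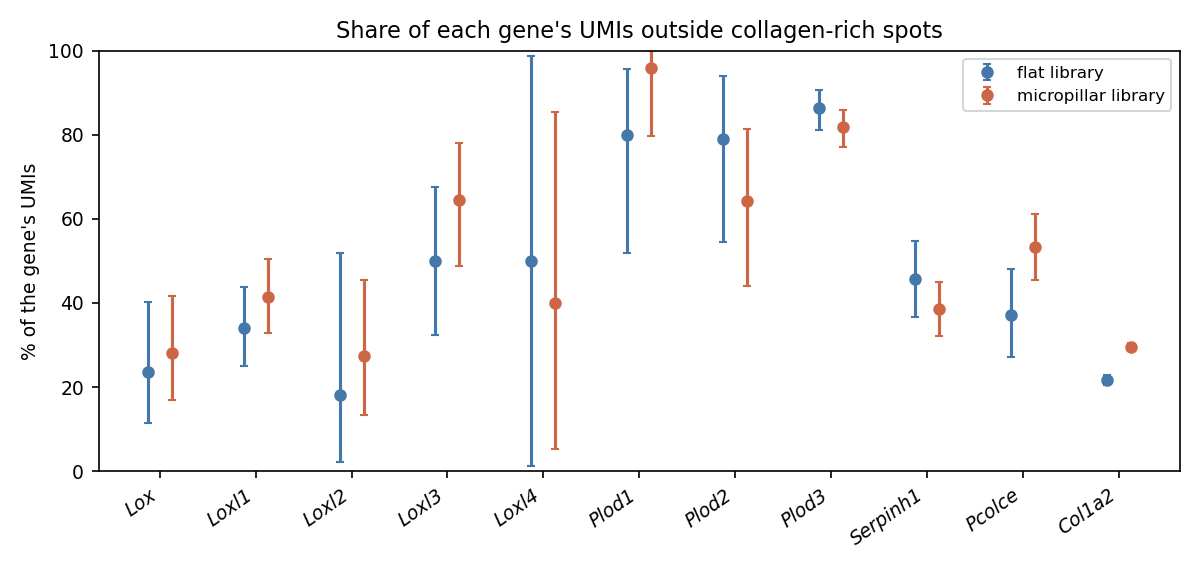
Share of each gene's UMIs that lay outside collagen-rich spots, in percent, for the flat and micropillar libraries, with bars for the exact 95% binomial interval. Col1a2 sits at 21.7% and 29.6%, Lox beside it, and Plod3 at 86.4% and 81.9%. Of all UMIs, 6.78% and 6.87% lay in collagen-rich spots.

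At equal depth the share of spots with a UMI gave the same division for Serpinh1 and Loxl1 and a smaller one for Plod3, but not for every gene. When each spot was thinned to 250 UMIs, 261 of 534 flat and 360 of 493 micropillar collagen-rich spots were deep enough to enter. Serpinh1 was then seen in 10.7% and 14.7% of collagen-rich spots, 1.25% and 0.80% of other spots, and 0.22% and 0% of cortical glutamatergic spots, a neuronal group taken as the background. Loxl1 was seen in 9.58% and 8.33%, then 0.62% and 0.42%, and in 0 of 451 and 0 of 440 cortical spots, which allows up to 0.67% and 0.68% of spots with a UMI. Plod3 was seen in 5.36% and 5.83% of collagen-rich, 2.38% and 1.85% of other and 2.22% and 1.59% of cortical spots. Loxl3 in the flat library was seen in 2.68% (1.08 to 5.45) of collagen-rich and 0.17% (0.04 to 0.50) of other spots. In the micropillar library its shares were 0.83% (0.17 to 2.42) and 0.38% (0.17 to 0.72), with overlapping intervals. Plod1 and Plod2 were seen in 0 or 1 collagen-rich spots of each library, too few to place them. Without thinning, at median depths of 2093 and 1726.5 UMIs, cortical spots with a Plod3 UMI made up 15.1% and 11.8%, and those with a Serpinh1 UMI 0.89% and 1.59%. For Serpinh1 and Loxl1 the intervals of the thinned cortical and collagen-rich shares did not overlap in either library, whereas the cortical Plod3 share was close to that of all other spots. Over the 10 genes and at full depth, 37.1% (33.0 to 41.3) of flat and 48.9% (44.4 to 53.4) of micropillar collagen-rich spots held at least 1 UMI, and 48 and 97 spots held UMIs of more than 1 of the genes. The collagen-rich spots of the micropillar library were also the deeper ones.

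The levels were next followed along the collagen share of a spot, in 6 ranges set after the data were seen. In the flat library Serpinh1 had 17.1 CPM in spots with no UMI of the 8 collagens, 8.80 CPM up to 0.25%, 172.8 CPM from 0.25 to 1%, 264.8 CPM from 1 to 2%, 394 CPM from 2 to 4% and 759.6 CPM above 4%. In the micropillar library the same steps gave 7.77, 20.9, 108.8, 291.7, 624 and 1201 CPM. The Serpinh1 level therefore rose from range to range in both libraries from 0.25% upwards. Lox went from 2.85 to 349 CPM and from 4.24 to 362 CPM between the first and last range. Pcolce went from 9.27 to 451.7 CPM and from 14.1 to 543 CPM, and Loxl1 from 9.27 to 554 CPM and from 5.65 to 411 CPM. Loxl3 stayed between 7.04 and 8.56 CPM over the first 3 flat ranges and then reached 164 CPM. Plod3 already had 92.7 and 79.8 CPM where no collagen UMI was seen and 226 and 263 CPM above 4%, with its highest value in the range from 2 to 4%, at 256 and 326 CPM. Plod2 had 1 UMI above 4% in the flat-implant library and 9 in the micropillar library. The ranges held between 143 and 1428 spots.

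**Figure D3:**
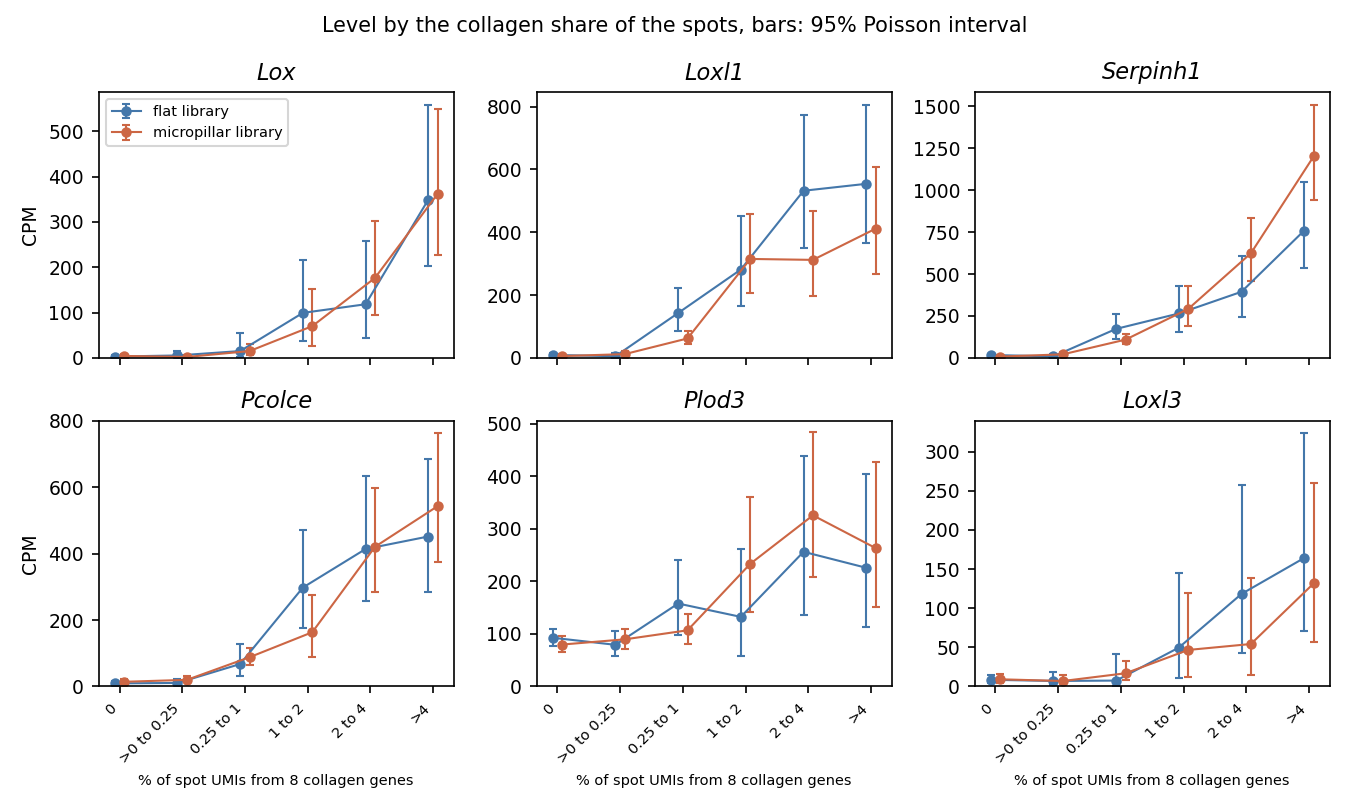
Level in CPM (y axis, starting at 0, a scale per panel) of Lox, Loxl1, Serpinh1, Pcolce, Plod3 and Loxl3 by the share of a spot's UMIs from 8 collagen genes (x axis, percent), for the flat and micropillar libraries, with bars for the 95% Poisson interval. Serpinh1 climbs to 759.6 and 1201 CPM in the last range, while Plod3 starts at 92.7 and 79.8 CPM and ends at 226 and 263 CPM.

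Set against the substrate, the summed UMIs of the genes per collagen transcript were lower where collagen was abundant, though not for every gene. Over the 10 genes, the flat library held 70.3 UMIs per 100 Col1a2 UMIs in spots without a UMI of the 8 collagens, then 46.1, 14.1, 10.9, 7.81 and 5.85 along the ranges. The micropillar library held 46.3, 39.6, 14.3, 11.7, 7.77 and 6.33. Plod3 gave 130 of the 215 flat and 113 of the 188 micropillar UMIs of the first range. Without it the values went from 27.8 (21.6 to 35.4) in the first range to 5.36 (4.42 to 6.44) in the last in the flat library, and from 18.5 (14.2 to 23.7) to 5.81 (4.97 to 6.76) in the micropillar library. Col1a2 is on the x axis of this relation only through the other collagens, but it is the denominator of the ratio, so that a fall along the ranges follows in part from its own rise. For single genes the fall differed in extent. Lox had 0.72 (0.48 to 1.03) UMIs per 100 Col1a2 UMIs in collagen-rich and 0.80 (0.37 to 1.53) in other spots of the flat library, and 0.69 (0.50 to 0.94) and 0.65 (0.37 to 1.05) in the micropillar library. Loxl1 had 1.73 (1.34 to 2.19) and 3.21 (2.24 to 4.47), then 1.27 (0.998 to 1.60) and 2.14 (1.60 to 2.81). Serpinh1 had 1.68 (1.30 to 2.13) and 5.08 (3.82 to 6.63), then 2.44 (2.05 to 2.88) and 3.63 (2.91 to 4.48). Pcolce had 1.38 (1.04 to 1.80) and 2.94 (2.01 to 4.16), then 1.31 (1.03 to 1.63) and 3.55 (2.84 to 4.39). Plod3 had 0.77 (0.52 to 1.09) and 17.6 (15.0 to 20.4), then 0.98 (0.75 to 1.27) and 10.6 (9.27 to 12.0). Loxl2 had 0.22 (0.10 to 0.42) and 0.18 (0.02 to 0.65), then 0.41 (0.26 to 0.61) and 0.36 (0.17 to 0.69). The ratios of Lox and Loxl2 to Col1a2 thus differed by less than their counting error between the 2 kinds of spot, and those of Loxl1, Serpinh1, Pcolce and Plod3 were higher outside collagen-rich spots in both libraries, with intervals that do not overlap. For Loxl1 and Serpinh1 the micropillar intervals all but touch.

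Spots were also sorted by 19 lists of cell type markers, gathered after the data were seen into broader kinds of spot. Among kinds with at least 100 Col1a2 UMIs, the lowest ratios of Serpinh1, Pcolce and Plod3 lay with granulocyte markers or with skeletal and fibrous markers. The flat granulocyte values rest on 1 UMI of Serpinh1 and 0 of Pcolce and Plod3, over 134 Col1a2 UMIs. Their intervals reach 4.23, 2.79 and 2.79 and contain the skeletal and fibrous values. In the micropillar library the Pcolce value of granulocyte spots rests on 3 UMIs, at 0.62 (0.13 to 1.83). In spots with bone-forming, osteoclast, tendon, cartilage or fibroblast markers, Serpinh1 had 1.84 (1.05 to 3.004) UMIs per 100 Col1a2 UMIs in the flat-implant library and 1.87 (1.34 to 2.55) in the micropillar library, nearly the same value. The lysyl oxidases together had 3.10 (2.03 to 4.55) and 2.15 (1.57 to 2.87) there, and Plod3 had 0.69 (0.25 to 1.51) and 0.96 (0.59 to 1.47). Plod3 reached 45.9 (36.0 to 58.3) and 21.9 (17.2 to 27.7) in neuronal spots and 21.4 (12.8 to 34.1) and 9.01 (6.35 to 12.5) in glial spots. Its ratio in neuronal spots exceeded that in skin, skeletal muscle and skeletal or fibrous spots in each library, with no overlap of intervals. The Plod3 level itself was not higher there. It was 77.8 (63.4 to 94.4) and 71.8 CPM (57.6 to 88.5) in neuronal spots. In skeletal and fibrous spots it was 197 (72.3 to 429) and 273 CPM (169 to 417). Col1a2, the denominator, had 169 and 327 CPM in neuronal and 28564 and 28460 CPM in skeletal and fibrous spots. In skin spots, with hair follicle or epidermis markers, Serpinh1 had 2.67 (1.51 to 4.37) and 5.43 (3.68 to 7.76), and Pcolce had 1.17 (0.47 to 2.42) and 3.57 (2.19 to 5.50). The 10 genes together had 6.55 (4.92 to 8.57) and 6.53 (5.48 to 7.74) in skeletal and fibrous spots against 12.5 (9.70 to 15.9) and 19.5 (15.8 to 23.9) in skin. A total of 174 and 302 spots scored near the limit for joining a list, and 1777 and 1741 spots joined one.

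**Figure D4:**
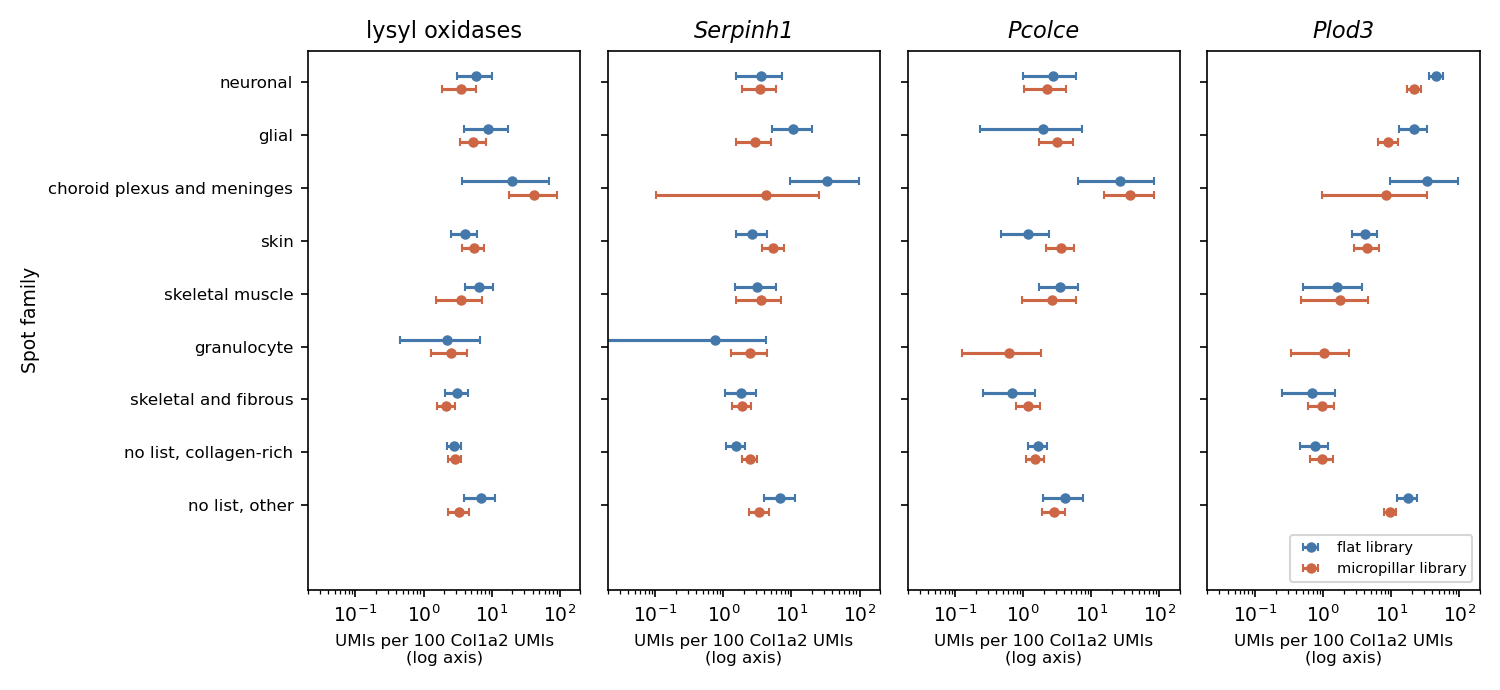
UMIs of the lysyl oxidases together, Serpinh1, Pcolce and Plod3 per 100 Col1a2 UMIs (log axis) in each kind of spot, for the flat and micropillar libraries, with bars for the exact 95% interval and no point where a gene had no UMI. Plod3 runs from 0.69 and 0.96 in skeletal and fibrous spots to 45.9 and 21.9 in neuronal spots, while the lysyl oxidases stay between 2.15 and 8.74 outside choroid plexus and meninges, where fewer than 100 Col1a2 UMIs were counted. The Plod3 level itself was 197 and 273 CPM in skeletal and fibrous spots and 77.8 and 71.8 CPM in neuronal spots.

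Cortical and choroid plexus spots were examined for expression away from collagen. In cortical glutamatergic spots Col1a2 had 122 UMIs in the flat-implant library and 310 in the micropillar library. If the enzymes had kept the ratio to Col1a2 found in collagen-rich spots, Serpinh1 would have had 2.05 and 7.57 UMIs there, and it had 5 and 7. Loxl1 would have had 2.11 and 3.94 and had 1 and 3, Pcolce 1.69 and 4.05 and had 3 and 7, and Lox 0.87 and 2.15 and had 2 and 0. Each of these counts lay within 3 UMIs of that number, but they are too few to show whether the ratio was kept. Plod3 had 78 and 65 UMIs where that ratio would give 0.93 and 3.05, at 81.4 CPM (64.3 to 102) and 75.5 CPM (58.3 to 96.3). Its level in cortical spots is thus close to the 93.4 and 88.6 CPM of all spots outside collagen-rich ones.

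In choroid plexus spots, marked by Ttr, Folr1 and Kcnj13 and holding 21263 and 28320 UMIs, Col1a2 had 14 and 22 UMIs. Pcolce had 4 and 8 UMIs there, at 188 CPM (51.3 to 482) and 282 CPM (122 to 557), against 0.19 and 0.29 UMIs at the collagen-rich ratio. Loxl3 had 1 and 7 UMIs, at 47.0 CPM (1.19 to 262) and 247 CPM (99.4 to 509), against 0.06 UMIs in each library. Lox, Loxl2, Loxl4 and Plod1 had 0 UMIs there in both libraries. Of 29 Loxl3 UMIs outside collagen-rich spots of the micropillar library, 7 thus came from 36 choroid plexus spots. The counts rest on few molecules, and Serpinh1 had 4 UMIs there in the flat library but 1 in the micropillar library.

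Between the libraries, by counts summed over the whole section, most of the genes differed by less than 1.5-fold. Of 9 genes with at least 20 UMIs, 1 (Loxl2) was at least 1.5-fold higher in the micropillar library, where 9.01% of 12145 genes were, and none was 1.5-fold lower, where 4.17% were. The median log2 ratio of micropillar over flat was 0.09 over the 9 genes and 0.06 over all genes (interquartile range -0.16 to 0.28). Loxl2 had 11 and 33 UMIs, 4.86 and 10.4 CPM, a log2 ratio of 0.96 (0.08 to 2.23), which a pseudocount of 10 CPM brought to 0.46. The minimum of 20 UMIs is summed over both libraries, and Loxl2 met it through the library in which it was higher. Its call is therefore partly set by the minimum. Serpinh1 had 55.2 CPM (125 UMIs) and 73.7 CPM (234 UMIs), a log2 ratio of 0.41 (0.10 to 0.74), and Pcolce had 39.3 CPM (89 UMIs) and 52.0 CPM (165 UMIs), a log2 ratio of 0.39 (0.02 to 0.79). Plod3 had 100.7 CPM (228 UMIs) and 100.8 CPM (320 UMIs), a log2 ratio of 0.00 (-0.25 to 0.25). The log2 ratio was 0.09 (-0.52 to 0.73) for Lox, -0.21 (-0.60 to 0.17) for Loxl1, -0.08 for Loxl3, 0.06 for Plod2 and 0.22 for Plod1. Each of these intervals counts molecules in 1 section per group and carries no spread between animals. With every spot given the same weight, Pcolce over the section had a log2 ratio of -0.10 and Serpinh1 one of nearly 0, and in spots with at least 500 UMIs they had 1.29 and 1.19. Loxl1 had -0.70 with equal weight and 0.98 (0.37 to 1.73) in spots with at least 500 UMIs, past 1.5-fold in opposite directions. Lox had -0.30 with equal weight and 0.98 (0.09 to 2.22) in spots with at least 500 UMIs.

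Within collagen-rich spots at the 1% limit, the interval of Serpinh1 alone stood clear of 0. It had 443 CPM in the flat-implant and 660.5 CPM in the micropillar library, with a log2 ratio of 0.58 (0.15 to 1.01), while Col1a2 had 26391 and 27062 CPM, a log2 ratio of 0.04. Per 100 Col1a2 UMIs that is 1.68 against 2.44. The value depended on the limit for collagen-rich spots, being 0.13 (-0.27 to 0.53) from 0.5% and 0.63 (0.16 to 1.11) from 2%, and without the spots of skin and muscle markers it was 0.48 (0.02 to 0.95). It fell just short of 1.5-fold by total counts and passed it with TMM scaling (0.62) and with median-of-ratios size factors (0.60). Of 7 genes with at least 20 UMIs, 1 (Loxl2, 0.90, -0.25 to 2.20) was at least 1.5-fold higher, where 17% of 4341 genes were, and 1 (Loxl3, -0.59, -1.67 to 0.48) was at least 1.5-fold lower, where 15.6% were. These shares are close to the background, and both intervals include 0. Loxl2 again met the minimum of UMIs through the micropillar library, with 9 flat and 24 micropillar UMIs. Loxl3 stood just inside the limit and fell short of it with TMM scaling (-0.54), while Loxl2 fell to 0.41 with the collagen limit at 0.5%. Loxl1 was at -0.41 (-0.90 to 0.08), but at -0.86 (-1.31 to -0.41) with the limit at 0.5% and -0.60 (-1.20 to -0.02) at 2%, lower by more than 1.5-fold and clear of 0 under both, and at 0.54 (-0.65 to 1.96) in spots with at least 500 UMIs. The others were Lox at -0.01, Pcolce at -0.05 and Plod3 at 0.40 (-0.26 to 1.08). The median was -0.01 against -0.02 over all genes.

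Outside collagen-rich spots, Pcolce was the one gene past 1.5-fold among 8, where 10.4% of 11790 genes were higher, and none was lower, where 3.99% were. It had 15.6 CPM (33 UMIs) in the flat-implant and 29.8 CPM (88 UMIs) in the micropillar library, with a log2 ratio of 0.89 (0.34 to 1.55). With every spot given the same weight the ratio was 0.21. Col1a2 moved with it, from 532 to 838 CPM, a log2 ratio of 0.66 (0.55 to 0.76), so that Pcolce per 100 Col1a2 UMIs was 2.94 and 3.55 with overlapping intervals. Spots with some collagen below the 1% limit were also more frequent in the micropillar library, with 582 spots in the range from 0.25 to 1% against 312. Their part in the Pcolce difference was not tested. Serpinh1 had a log2 ratio of 0.17 (-0.32 to 0.68) outside collagen-rich spots, which was -0.63 with equal weight and 0.76 (0.17 to 1.46) in spots with at least 500 UMIs. Plod3 had one of -0.07 (-0.35 to 0.20) and Loxl1 of 0.07 (-0.57 to 0.72).

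**Figure D5:**
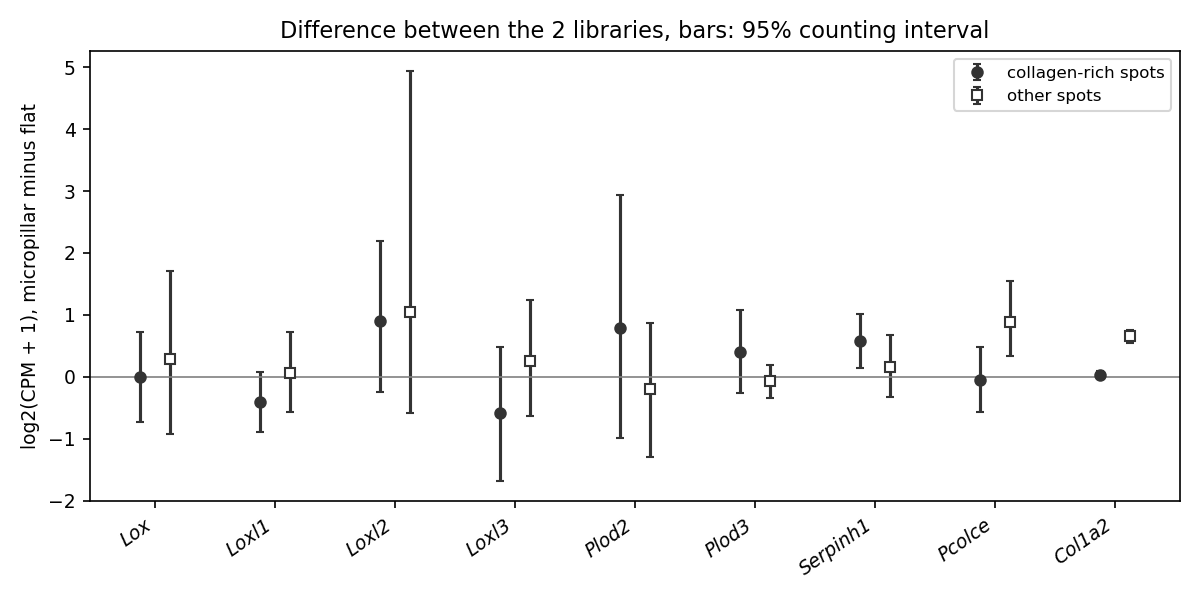
Difference between the libraries, log2(CPM + 1) in the micropillar minus the flat library, in collagen-rich (filled circles) and other spots (open squares), with bars for the 95% counting interval. Serpinh1 lies at 0.58 in collagen-rich spots and Pcolce at 0.89 in other spots, where Col1a2 lies at 0.66. Loxl4 and Plod1 are not drawn because of their few UMIs.

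A list of 30 other genes of collagen folding, export and processing was read the same way. Of those with at least 20 UMIs, 18 of 24 were at least 2-fold higher in collagen-rich spots of the flat library and 17 of 26 in those of the micropillar library, and 3 and 1 were 2-fold lower. Over all genes the shares were 22.2% and 18.4% higher and 31.6% and 25.3% lower. Among the 23 genes of the list with at least 50 UMIs over both libraries, the highest were Sparc, a collagen-binding matricellular protein, with 18.9-fold (15.2 to 23.6) and 12.1-fold (10.4 to 14.2), Creb3l1, a transcription factor of secretory cells, with 12.2-fold (5.83 to 25.4) and 13.6-fold (7.27 to 25.3), and Tgm2, a transglutaminase, with 9.38-fold (6.21 to 14.0) and 10.1-fold (6.95 to 14.6). The lowest of the 23 were Sec23a and Mia3, which act in the export of large cargo from the endoplasmic reticulum, and Adamts3, a procollagen N-proteinase. Sec23a had 0 and 1 UMIs in collagen-rich spots against 32 and 47 elsewhere, Mia3 had 0 and 2 against 34 and 44, and Adamts3 had 2 and 2 against 44 and 40. The intervals of all 3 genes include no difference in both libraries, with upper bounds of 1.68 and 1.69 for Sec23a, 1.58 and 2.36 for Mia3, and 2.39 and 2.61 for Adamts3, as a fold of collagen-rich over other spots. The median log2 ratio of the list was 1.79 and 1.82, under the 4.22 and 3.52 of the enzymes and chaperones, and neither was tested against the other. Between the libraries, 5 of 27 were at least 1.5-fold higher over the section, where 9.01% of all genes were, and none was lower, where 4.17% were. P4hb and P4ha2, subunits of prolyl 4-hydroxylase, had 26 and 64 UMIs with a log2 ratio of 0.76 (0.13 to 1.53), and 36 and 85 UMIs with 0.72 (0.17 to 1.36). Fkbp14, a prolyl isomerase, had 26 and 62 UMIs with 0.72 (0.08 to 1.49). At the other end were Adamts3 at -0.58 (-1.26 to 0.02), Tgm2 at -0.26 (-0.65 to 0.13) and P3h1, a prolyl 3-hydroxylase, at -0.15 (-0.87 to 0.57).

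Each of the 4 genes with at least 200 UMIs was compared with 5573 genes by its log2(CPM + 10) over 24 points, the spot groups of both libraries. These points share libraries and depths, so the correlations describe the pattern only. Markers that define the spot groups were kept among the 5573 genes. Dcn, named below, is one of the fibroblast markers, so its pattern is partly set by the grouping. The genes most like Serpinh1 were Vim (vimentin, Pearson r = 0.92), Crip1 (0.92) and Lgals1 (galectin-1, 0.91), with Col1a2 at rank 8 (0.89). Those most like Pcolce were Dcn (decorin, 0.91), Prelp (0.90) and Col14a1 (0.88), with Col1a2 at rank 31. Those most like Loxl1 were Antxr1 (a cell surface collagen receptor, 0.94), Col6a2 (0.92) and Il11ra1 (0.91), with Col1a2 at rank 23. Those most like Plod3 were Gcnt1 (a glycosyltransferase, 0.87), Txn1 (thioredoxin, 0.81) and Selenop (selenoprotein P, 0.80), with Col1a2 at rank 136 (0.65).

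In the mm10 build the genes lie on 8 chromosomes. Lox spans chromosome 18, 52516067 to 52529867, Loxl1 chromosome 9, 58287738 to 58313186, Loxl2 chromosome 14, 69609068 to 69695834, and Loxl3 chromosome 6, 83034173 to 83052562. Loxl4 lies on chromosome 19, 42593982 to 42612813, Plod1 on chromosome 4, 147909753 to 147936767, Plod2 on chromosome 9, 92542223 to 92608428, and Plod3 on chromosome 5, 136987019 to 136996648. Serpinh1 lies on chromosome 7, 99345376 to 99353239, and Pcolce on chromosome 5, 137605103 to 137613784. Plod3 and Loxl3 overlap protein-coding genes of the opposite strand, Znhit1 and Htra2, and Pcolce overlaps Fbxo24 of its own strand. How strand was used in the counting is not given in the sources used here, so reads of these pairs may not be told apart. Znhit1 had 65.1 and 100.9 CPM in collagen-rich spots against 105.7 and 97.4 CPM elsewhere. Htra2 had 274 and 179 against 108 and 115 CPM, and Fbxo24 had 0 and 2 UMIs in all.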

How the data were processed

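Spatial transcriptomics of 2 sections was analysed, 1 with a flat and 1 with a micropillar implant. The authors deposited raw counts of UMIs for every gene in every spot, without normalisation. Space Ranger 2.0.1 produced the matrices, per the file headers. The submitters' processing notes name another tool, Cell Ranger 7.2.0, beside mm10, and a directional mRNA kit appears in the labels' protocol. Neither the probe set, the aligner settings nor the use of strand was found, and each is not given in the sources used here. Positions of spots did not enter any value.

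Both libraries list 19465 genes, with 11 symbols on 2 lines. Spots with at least 100 UMIs were kept, 2681 of 3161 and 3064 of 3303. Counts were summed over spots of a set and expressed as CPM. Log2 ratios use a pseudocount of 1 CPM, which understates the change of low genes, while folds within a library and ratios to Col1a2 use counts without one. Intervals are 95%, by the exact Poisson method for a level and by Clopper-Pearson for shares and for ratios of 2 counts. A share of 0 is limited by 3 counts. Intervals and limits cover counting error only.

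A spot joined the marker list with the highest score, the list's share of its UMIs over the 99th percentile of that share, if the score reached 0.25 with at least 3 UMIs. Spots are not cells, so doublets were not called and no deconvolution was made. A difference was called at 1.5-fold between libraries and at 2-fold between collagen-rich and other spots, for genes with at least 20 UMIs. These UMIs are summed over both sides of the comparison, so a gene can enter through the side where it is higher. All 10 genes and Col1a2 were named. Of the 30 pathway genes, the 3 highest and 3 lowest per comparison among those with at least 50 UMIs were named, as were the 3 genes most like a member with at least 200 UMIs. The genes, lists and limits were chosen with earlier results of these data known. Broader kinds of spot, ranges of collagen share, the sum of 9 genes without Plod3 and the set without skin and muscle spots were added after the data were seen.

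Coordinates are from GENCODE M21 and promoters from RefSeq. Python 3.11.15 with numpy 2.4.6, scipy 1.17.1 and pandas 2.3.3 was used, and edgeR 4.0.16 in R 4.3.3 for TMM factors alone. Count summing and intervals were tested on simulated data. Alternatives covered the UMI minimum, the weight of spots, the scaling, the pseudocount, the limit for collagen-rich spots, thinning and the group score.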

Additional observations from a re-analysis of the deposited data

Results flagged for a closer look

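Plod1 had opposite signs in the libraries for collagen-rich over other spots, with a log2 ratio of 1.62 in the flat library (3 UMIs against 12) and -0.71 in the micropillar library (1 against 24). The difference was not tested, and both intervals include 0. P4hb, the prolyl 4-hydroxylase subunit also known as protein disulfide isomerase, also had opposite signs. It had -0.77 (-6.22 to 1.75) in the flat library, on 1 UMI against 25. In the micropillar library it had 1.99 (1.11 to 2.91), on 15 UMIs against 49, an interval clear of 0. This difference was not tested either.

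Spots under the minimum of 100 UMIs, which enter no comparison above, held the 10 genes at 1569 CPM (1099 to 2172) in 480 flat spots with 36 UMIs and at 847 CPM (451 to 1449) in 239 micropillar spots with 13 UMIs. In the kept spots they had 295 and 328 CPM, and 3 counts would give 130.7 and 195.5 CPM in the spots left out. Col1a2 was also higher there, at 12244 and 12838 CPM against 2286 and 2640 CPM.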

How the results depend on the processing

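No paired analysis was possible because each group has 1 library, and for the same reason none could be left out in turn. Across the alternatives the median log2 ratio of micropillar over flat ranged from -0.10 to 0.98 over the section, from -0.31 to 0.54 in collagen-rich and from -0.12 to 0.49 in other spots, so no direction between the libraries is fixed. The section value of 0.98 came with at least 500 UMIs per spot, which also gave a flat share outside of 72.3%. The share outside was 53.0% (flat) and 62.5% (micropillar) with the limit at 2% and 41.8% (micropillar) at 0.5%, against 41.3% and 53.3%. The median log2 ratio of collagen-rich over other spots was 2.89 and 2.81 with equal weight per spot, 5.20 and 5.91 against spots with no collagen UMI, and 3.41 in thinned flat spots. With at least 500 UMIs, Loxl3 in collagen-rich spots turned to 0.22 between libraries, and Plod1 and Plod2 in the flat library to -2.50 and -3.05 for collagen-rich over other spots, where thinning gave Plod2 -3.33. Between libraries in collagen-rich spots, Plod2 turned to -0.26 with equal weight and Loxl4 to -0.41 with the rule on Col1a2 alone. The cause was not tested, but each of these 4 genes had 17 UMIs or fewer per library in collagen-rich spots. The median ratio to Col1a2 per spot group kept between 9.59 and 10.8. TMM factors and median-of-ratios size factors moved all genes by less than 0.1 on the log2 scale. At this depth, Loxl4, Plod1 and Plod2 cannot be placed.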
